A study of Capra hircus with 6 samples.

Results

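Circular RNAs (circRNAs) were examined for 9 genes that encode transcription factors of muscle and of mesenchymal tissue: MEF2C, SRF, NFIX, ZEB1, FOXJ3, ELF1, EBF1, EBF2 and BNC2. The tissue was the longissimus dorsi, a long back muscle, of goats of the Haimen breed, with 3 libraries from kids on day 1 after birth (kid 1 to 3) and 3 libraries from fetuses at day 75 of gestation (fetus 1 to 3). The comparison asks how their circRNAs differed between these stages. No allele, treatment or diet is named for either stage, and the labels do not state that each library came from a separate animal, so the p-values cover only library-to-library spread, which may be technical. Table entries were taken by the host gene symbol, together with entries that carry a gene number in place of a symbol and lie on the same chromosome and strand within the span of that gene's entries, with 1 base allowed. This gave 69 of the 25500 entries, 58 by symbol and 11 by number, and 9 of 6421 host genes. Entries that share an end and whose starts lie 1 base apart were added together, which left 62 circRNAs of 23978. They held 4003 back-splice reads, the reads that cross the junction of a circle.

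A circRNA forms when the donor site at the end of an exon is joined back to the acceptor site of an upstream exon, so that the exons between become a closed ring without free ends. Such rings resist RNase R, an exonuclease that digests linear RNA and was used on these samples. MEF2C and SRF are MADS-box proteins that bind the control regions of many muscle genes, and NFIX drives the switch from the embryonic to the fetal muscle programme in the mouse. ZEB1, EBF1, EBF2 and BNC2 are factors best known from mesenchymal, fat or fibroblast cells, while FOXJ3, a forkhead protein, and ELF1, an ETS protein, are expressed in many tissues. The values below count circular junctions and do not measure the mRNA or protein of these genes.

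Back-splice reads numbered 77111, 42695 and 73922 in kid 1 to 3, against 36484, 33222 and 56467 in fetus 1 to 3. Reads of the 9 genes made up 1.23% to 1.33% of these in kids and 1.15% to 1.32% in fetuses. The unit of level is CPM (counts scaled to a common library total), in which reads are divided by the back-splice total of the library and a TMM factor, a scaling that evens out library composition. In this scale 1 read of a host gene stands for 13.9 to 27.0 CPM in the kid libraries and 16.0 to 27.8 CPM in the fetus libraries. Trimming left 84.01% to 87.92% of the reads in the kid libraries and 86.99% in fetus 3, but 70.73% in fetus 1 and 69.1% in fetus 2. Muscle fibre genes taken as a marker list (11 genes, 9 with a circRNA) summed to 20317 to 24876 CPM in kids and 11397 to 12092 CPM in fetuses, and fibroblast and matrix genes (8 of 10) to 1026 to 1603 CPM in kids and 2398 to 3642 CPM in fetuses. The largest part of the fibroblast and matrix sum was FBN2, with means of 816 CPM in kids and 1749 CPM in fetuses. COL1A1 went the other way, with means of 113 CPM in kids and 42.4 CPM in fetuses. MYH3, MYH7, DCN and LUM were at 0. These sums moved with stage, and their part in the differences below was not tested. In whole muscle, fewer cells of a type and less RNA per cell cannot be told apart.

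BNC2, ELF1 and NFIX gave more circular RNA in kids than in fetuses, by 5.83-fold, 5.55-fold and 2.66-fold. With single libraries left out, BNC2 and ELF1 passed in 6 of 6 fits and NFIX in 3 of 6. MEF2C, ZEB1, FOXJ3 and EBF1 did not pass the test as whole genes, and SRF (higher in kids) and EBF2 (lower in kids) came just above the threshold, an adjusted p of 0.05. The 9 genes were all tested, 3 were called and all 3 were higher in kids. Each of the 3 had at least 5 reads in 3 kid libraries and 2 fetus libraries, where 3 libraries were needed. They could thus enter through the stage where they are high, and the count of 3 is a description. SRF (3 kid libraries, 1 fetus library) and EBF2 (1 kid library, 3 fetus libraries) could likewise enter through 1 stage alone. Across all 1755 host genes tested 19.4% were called, 11.9% higher and 7.46% lower in kids. The median log2 difference of kid over fetus was 0.63 over the 9 genes and 0.05 over all host genes tested. In 5 of the 9 genes the levels of the stages did not overlap, against 37.2% of all host genes. Tests used edgeR's quasi-likelihood method on read counts with Benjamini-Hochberg adjustment over all host genes, and log2 values are kid over fetus with a standard error (SE).

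**Figure D1:**
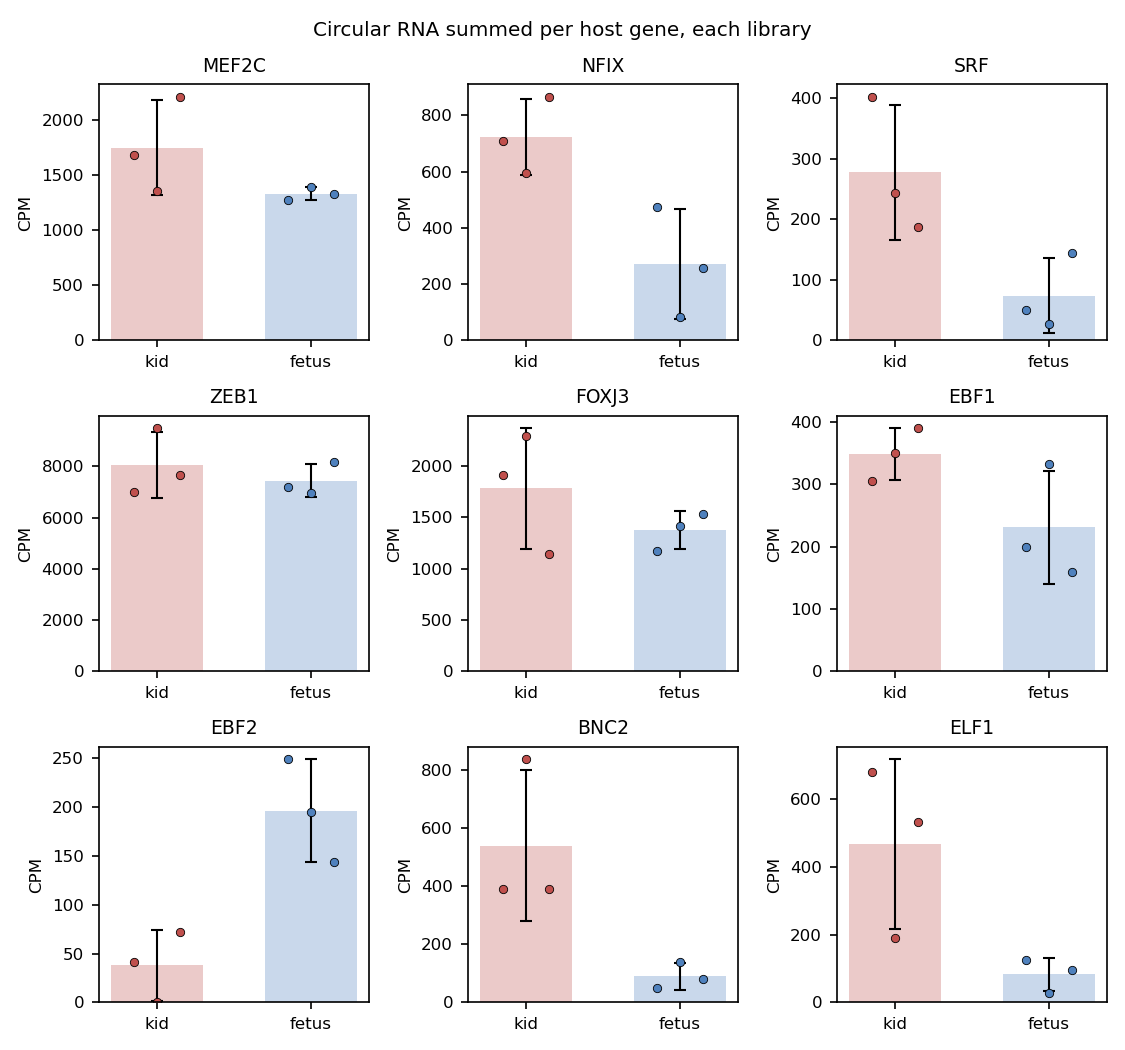
Level of circular RNA of each of the 9 genes, in CPM (reads summed over all circRNAs of the gene), kid left of fetus; points are libraries, bars are means of 3 libraries and error bars are SD. The kid points of BNC2, ELF1, NFIX and SRF all lie above the fetus points, those of EBF2 all lie below, and those of the other genes overlap.

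At circRNA level 16 of the 62 had enough reads to be tested, at least 5 in at least 3 libraries. Of these, 3 were called, all higher in kids: the MEF2C circle with the downstream form of exon 5, the BNC2 circle of exon 6 and the ELF1 circle of exons 4 and 5. Across all 1960 circRNAs tested 15.2% were called, 9.23% higher and 5.92% lower in kids. The median log2 difference was 0.53 over the 16 and 0.07 over all tested. The ELF1 circle reached the read minimum through the kid libraries alone, where it is high. The other 15 had libraries of both stages at the minimum. For the MEF2C and BNC2 circles 1 and 2 fetus libraries reached it, but the 3 kid libraries would have been enough. All 3 called circles could thus enter through the stage where they are high, and the count of 3 is a description of the tested circles. Most of the rest were rare: 18 of the 62 had 1 read in all 6 libraries together, 21 had at least 10 reads, and 14 were seen in all 6 libraries. Short circles held most of the reads. Exonic circles of 2 or 3 exons carried 91.1% of the exonic reads of the 9 genes and 55.3% of those in the whole table, whereas circles of 4 or more exons carried 3.56% and 40.9%. A single ZEB1 circle sets much of this: without it, circles of 2 or 3 exons carried 78.4% of the exonic reads of the 9 genes and circles of 4 or more exons 8.64%. By number of circles, 57.9% of those of the 9 genes and 46.2% of those in the table held 2 or 3 exons. The median length of the exonic circles of the 9 genes was 436 bases (168 to 1970), against 451 bases over the table.

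**Figure D2:**
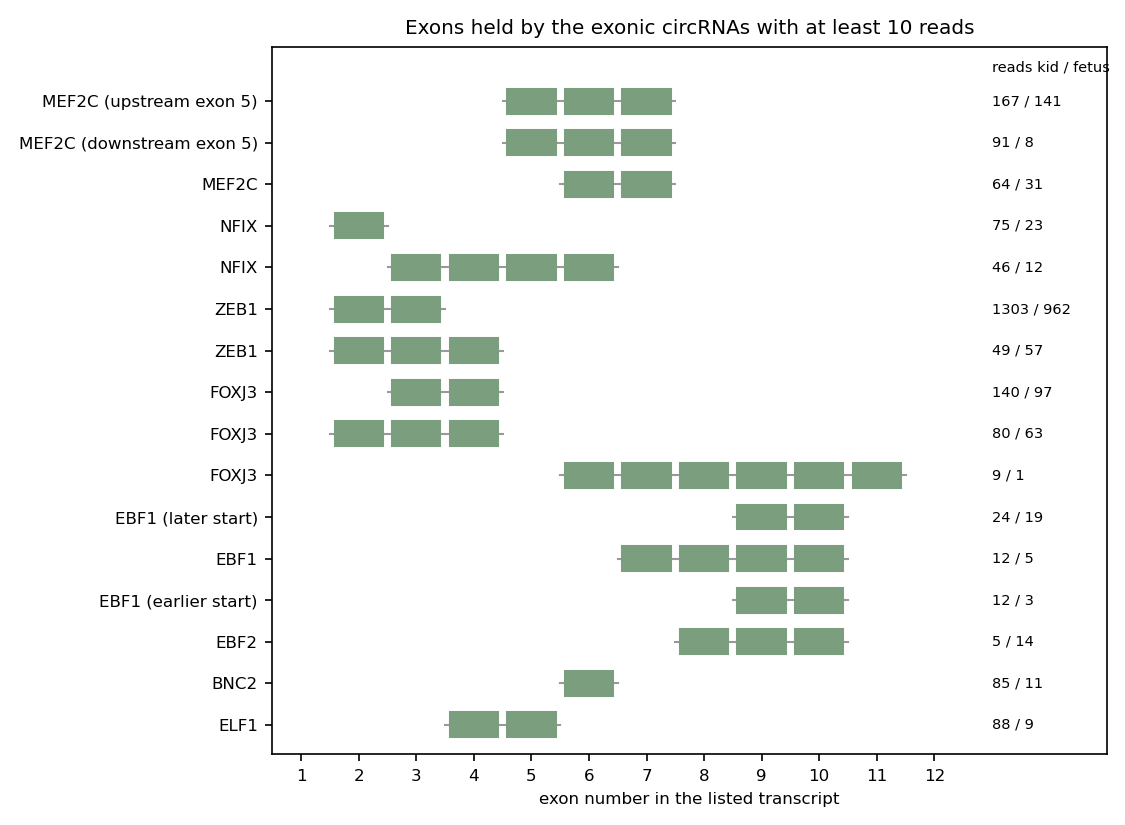
The exonic circRNAs with at least 10 reads and listed exon numbers, 1 per line, drawn as boxes for the exons they hold. The x axis is the exon number in the listed transcript, not to genomic scale, and reads in kid and in fetus are at the right. SRF has no exonic circle and is not drawn. A ZEB1 circle of 33 reads and a FOXJ3 circle of 11 reads have no exon numbers listed and are not drawn either. ZEB1 exons 2 to 3 carries the most reads (1303 in kid, 962 in fetus).

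MEF2C, on the plus strand of chromosome 7, is a MADS-box activator of muscle genes. Its transcripts are known to carry a pair of alternative exons beside the DNA-binding domain, of which one is used mainly in striated muscle, and the files do not say which is which. The gene gave 7 circRNAs between 22241286 and 22275321 (coordinates as listed, build not given in the sources used here). Its level was 1681, 1351 and 2209 CPM in kids and 1272, 1389.9 and 1327 CPM in fetuses. The ranges overlapped, and the log2 difference was 0.41 ± 0.24 (adjusted p = 0.246, edgeR).

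This total joined a circle that was called higher in kids with others that were not called. Nearly all MEF2C reads, 98.8%, used the same donor at the end of exon 7 (22253819), and 3 acceptors shared them. The leading circle (379 bases) opened with the upstream form of exon 5, which runs from 22241286 to 22241429, 144 bases. Another circle (373 bases) opened with the downstream form, 138 bases, whose listed start is 22241489 or 22241490 and which ends at 22241627. Each form is the fifth exon of its own listed transcript, and both circles go on through exons 6 and 7. A circle of exons 6 and 7 alone (235 bases) had neither form.

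The circle with downstream exon 5 had 464, 283 and 680.4 CPM in kids, against 127, 54.8 and 16.4 CPM in fetuses. Every kid library lay above every fetus library. The means were 476 ± 199 CPM in kids and 66.2 ± 56.4 CPM in fetuses (SD, n = 3 each, 91 and 8 reads), and the log2 difference was 2.96 ± 0.61 (adjusted p = 0.00671, edgeR). It passed without each library in turn, with a log2 difference of 3.77 without fetus 1 and 2.33 without fetus 3, and it did not pass without fetus 1 and fetus 2 together (4.64, adjusted p = 0.0771).

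The circle with upstream exon 5 had 928, 771 and 1028 CPM in kids and 917, 1205 and 1003 CPM in fetuses. These ranges overlapped, and the log2 difference was -0.18 ± 0.24 (adjusted p = 0.675, edgeR). The circle of exons 6 and 7 had 281, 231 and 507 CPM in kids and 178, 109.6 and 329 CPM in fetuses, which also overlapped (log2 difference 0.68 ± 0.48, adjusted p = 0.378, edgeR).

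Of the reads of both exon 5 circles, the downstream form held 33.3%, 26.8% and 39.8% in kids and 12.2%, 4.35% and 1.61% in fetuses. The stages did not overlap, with means of 33.3 ± 6.50% in kids and 6.05 ± 5.49% in fetuses (SD, n = 3 each). A two-sided exact permutation test gave p = 0.1, the smallest that 3 libraries against 3 allow. Over the 3 tested MEF2C circles, edgeR's test for unequal change gave F = 10.8 and an adjusted p of 0.0112, and 8.04% of 373 host genes with several tested circRNAs were called by it. MEF2C was the 1 called among the 4 members that could be tested; adjusted p was 0.807 for FOXJ3, 0.967 for NFIX and 0.603 for ZEB1. Without kid 1, kid 3 or fetus 2 the MEF2C test no longer passed (adjusted p of 0.0760, 0.0565 and 0.0870).

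**Figure D3:**
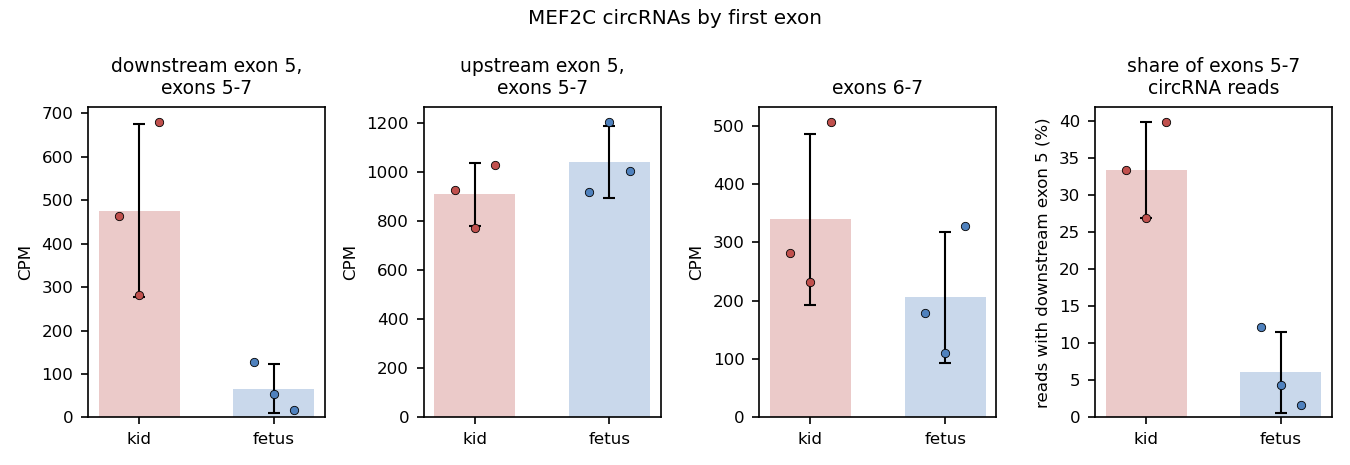
MEF2C circles: level in CPM of the circle with the downstream form of exon 5, of the one with the upstream form and of exons 6 and 7 alone, and the percent of the reads of both exon 5 circles held by the downstream form, kid left of fetus (points are libraries, bars means, error bars SD). The downstream share lies between 26.8% and 39.8% in kids and between 1.61% and 12.2% in fetuses, while the upstream circle overlaps between the stages.

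SRF, the serum response factor, controls actin and other contractile genes together with its myocardin-family partners. On the minus strand of chromosome 23 it was represented by 1 circle of about 199 bases (32065808 to 32066007), listed as lying within intron 6 and spread over 3 entries whose starts differ by 1 base each. Its level was 403, 243 and 188 CPM in kids and 49.9, 27.8 and 144 CPM in fetuses. The lowest kid library lay above the highest fetus library, fetus 3, which held 9 of the 12 fetus reads. The log2 difference of 1.75 ± 0.62 did not pass (adjusted p = 0.0532, edgeR). It passed without kid 3 (1.97, adjusted p = 0.0476) and without fetus 3 (2.71, adjusted p = 0.0281), and leaving out the other libraries gave adjusted p-values of up to 0.221. No exonic SRF circle was listed.

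NFIX, on the minus strand of chromosome 7 (97861424 to 97923016), belongs to the nuclear factor I family. It gave 8 circRNAs with 133 reads in kids and 38 in fetuses. The gene's level was 709, 594 and 866 CPM in kids and 474, 83.4 and 256 CPM in fetuses. The stages did not overlap, and fetus 2, with 3 reads, was far below the other fetuses. The means were 723 ± 137 CPM in kids and 271 ± 196 CPM in fetuses (SD, n = 3 each), a log2 difference of 1.41 ± 0.41 (adjusted p = 0.0195, edgeR). The call was lost without kid 3 (1.25, adjusted p = 0.0682), without fetus 2 (0.98, adjusted p = 0.120) and without fetus 3 (1.29, adjusted p = 0.0854), so it rests on these libraries.

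A pair of NFIX circles carried most of the reads. The circle of exon 2 alone (532 bases) had 352, 411 and 492 CPM in kids and 280.3, 0 and 197 CPM in fetuses. The one of exons 3 to 6 (396 bases) had 281, 103 and 319 CPM in kids and 204, 27.4 and 49.3 CPM in fetuses. The circle of exon 2 did not overlap between stages and the other did. Their log2 differences were close to each other, 1.33 ± 0.61 and 1.41 ± 0.67, and neither passed alone (adjusted p of 0.169 and 0.186, edgeR).

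ZEB1, a zinc finger and homeobox repressor known for its part in the mesenchymal state, held 60.9% of all reads of the 9 genes. It lies on the minus strand of chromosome 13 (33128511 to 33272240) and gave 13 circRNAs. The level of the gene was 7002, 9508 and 7653 CPM in kids and 7180.4, 6977 and 8169 CPM in fetuses. The ranges overlapped, and the means were 8054 ± 1300.1 CPM in kids and 7442 ± 638 CPM in fetuses (SD, n = 3 each). The log2 difference was 0.11 ± 0.17 (adjusted p = 0.714, edgeR), and its sign turned without the TMM factors (-0.16), without kid 2 (-0.03), without fetus 2 (-0.00) and without fetus 1 and fetus 2 together (-0.07), with no call in any of these.

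One ZEB1 circle, exons 2 and 3 (298 bases), had 1303 reads in kids and 962 in fetuses, 94.0% and 91.6% of the gene's reads. Its level was 6553, 8712 and 7209.8 CPM in kids and 6650.1, 6355 and 7711 CPM in fetuses, with overlap (log2 difference 0.11 ± 0.17, adjusted p = 0.709, edgeR). The acceptor of exon 2 (33272240) was used by 5 circles and by 97.9% of reads in kids and 97.9% in fetuses. The longer circle of exons 2 to 4 (499 bases) had 239, 179.9 and 362 CPM in kids and 459, 301 and 460.3 CPM in fetuses. These ranges overlapped too, and the log2 difference of -0.62 ± 0.39 did not pass (adjusted p = 0.321, edgeR). The third tested circle, of 2 exons but with other listed ends, had 18 reads in kids and 15 in fetuses (-0.15 ± 0.79, adjusted p = 0.930, edgeR).

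FOXJ3 is a forkhead factor that activates Mef2c transcription in mouse muscle. It lies on the minus strand of chromosome 3 (16784100 to 16898215) and gave 11 circRNAs. The level of the gene was 1917, 2296 and 1141 CPM in kids and 1172, 1418 and 1535 CPM in fetuses. Kid 3 lay below all fetus libraries and kid 1 and kid 2 above them. The log2 difference was 0.35 ± 0.26 (adjusted p = 0.378, edgeR). The leading circle, exons 3 and 4 (400 bases), had 886, 1054 and 521 CPM in kids and 713, 657 and 739.8 CPM in fetuses, with overlap (0.20 ± 0.30, adjusted p = 0.719, edgeR).

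The circle of FOXJ3 exons 2 to 4 (461 bases) stands in the table as 2 entries with the same end, 16898215, and with starts at 16859498 and 16859499. The entry with the lower start had 34, 26 and 20 reads in kids and 0 in each fetus. The entry with the higher start had 0 in each kid and 10, 15 and 38 reads in fetuses. Each entry alone thus looks exclusive to a stage, and the authors' deposited table marks both as significant, with q = 7.2427e-08 for the lower start and q = 2.34436e-06 for the higher. Tested as listed with edgeR's quasi-likelihood method, they gave log2 values of 7.61 (adjusted p = 0.00373) and -7.55 (adjusted p = 0.00346), which depend on the prior count where a stage has no read.

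Added together, the circle of exons 2 to 4 had 80 reads in kids and 63 in fetuses. Its level was 478, 668 and 289.5 CPM in kids and 255, 411 and 625 CPM in fetuses, and the ranges overlapped. The log2 difference was 0.09 ± 0.42 (adjusted p = 0.926, edgeR). Unequal change among the FOXJ3 circles behaved alike: adjusted p was 3.32e-06 with the entries as listed and 0.807 with them added. The same listing occurred elsewhere in the table: 1508 sets of entries had starts 1 base apart and the same end. In 291 of them 1 entry had reads in kids alone and another in fetuses alone. That count has no read minimum, so 1 read was enough for an entry. In 13 of the 1508 sets the authors' deposited table calls 2 entries significant.

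**Figure D4:**
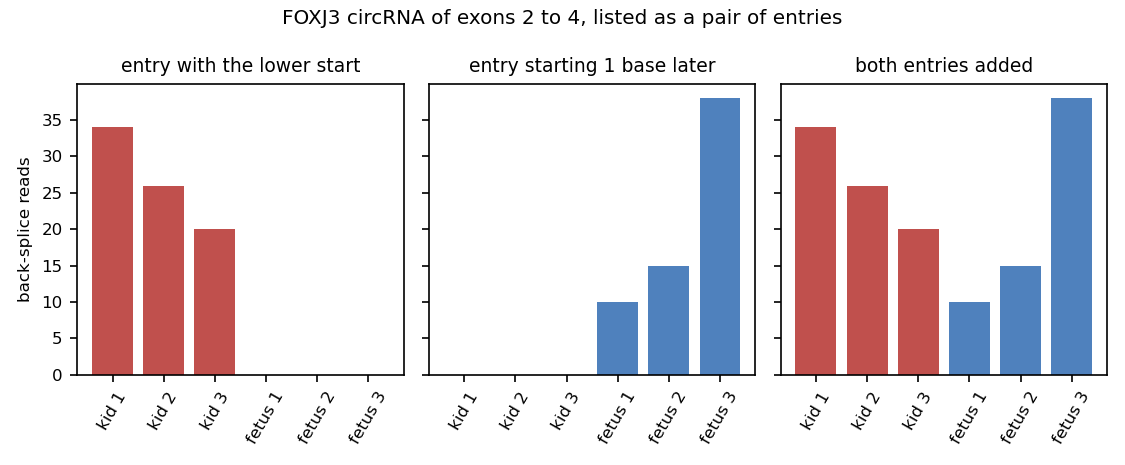
Back-splice reads per library of the 2 table entries of the FOXJ3 circle of exons 2 to 4, whose starts differ by 1 base, and of their sum, kid libraries left of fetus libraries. Each entry has reads in 1 stage alone, 20 to 34 in kids and 10 to 38 in fetuses, and the sums of the stages overlap.

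Further FOXJ3 circles that the table lists as intronic share splice ends with the exonic ones. One, of 12223 bases, has the same start as the circles that close at exon 4 and had 38 reads in kids and 22 in fetuses (log2 difference 0.39 ± 0.44, adjusted p = 0.608, edgeR). Another, of 42418 bases, shares its listed end (16898215) with the circles that open at exon 2, the acceptor side on the minus strand. It had 112, 128 and 86.9 CPM in kids and 0, 137 and 0 CPM in fetuses. Fetus 2 alone thus overlapped the kids (log2 difference 1.40 ± 1.13, adjusted p = 0.446, edgeR). This value rests on single fetus libraries: it was 5.59 without fetus 2 (adjusted p = 0.0841), 0.82 without fetus 1 and 0.63 without fetus 3, with no call. Of all FOXJ3 reads 88.7% used the boundary at 16859498.

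ELF1, an ETS factor known from blood and endothelial cells, lies on the plus strand of chromosome 12 (75348817 to 75367484) and gave 4 circRNAs. The level of the gene was 681, 189 and 534 CPM in kids and 125, 27.8 and 95.9 CPM in fetuses. All kid libraries lay above all fetus libraries, although kid 2, with 7 reads, was far below the other kids. The means were 468 ± 252 CPM in kids and 82.8 ± 49.7 CPM in fetuses (SD, n = 3 each), a log2 difference of 2.47 ± 0.55 (adjusted p = 0.00331, edgeR). The call held without each library in turn (adjusted p of 0.0021 to 0.0321) and was lost without fetus 1 and fetus 2 together (2.27, adjusted p = 0.130).

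The circle of ELF1 exons 4 and 5 (276 bases) carried 92.4% of the gene's reads. It had 633, 154 and 536 CPM in kids and 101.9, 27.4 and 65.8 CPM in fetuses, without overlap. The log2 difference was 2.75 ± 0.61 (adjusted p = 0.0108, edgeR); without fetus 2 it was 2.38 and did not pass (adjusted p = 0.0630). Since no fetus library reached 5 reads, the circle entered the test through the kids alone, and its values are given as a description. The gene reached 5 reads in 3 kid libraries and 2 fetus libraries, so the kids alone would have been enough for it too. The circle of exons 4 and 5 also stands as 2 entries, of which the one with the higher start had 4 reads, all in fetus 1. The endothelial marker list summed to 125 to 245 CPM in kids and 95.9 to 278 CPM in fetuses. The immune list summed to 97.2 to 245 CPM in kids and 250.2 to 448 CPM in fetuses. CDH5, PTPRC, CD74, CSF1R and IKZF1 were at 0. Most of the immune sum was DOCK8 alone, with means of 130 CPM in kids and 344 CPM in fetuses. MRC1 went the other way, with 7 reads in kids and 1 in fetuses, and DOCK2 had 1 read, in kids.

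EBF1 and EBF2 are early B-cell factors, helix-loop-helix proteins that act in B cells (EBF1) and in fat and other mesenchymal cells (both). EBF1, on the plus strand of chromosome 7 (40141453 to 40282727), gave 9 circRNAs. Its level was 306, 351 and 389.9 CPM in kids and 199, 334 and 159.9 CPM in fetuses. Fetus 2 lay within the kid range, and the log2 difference of 0.63 ± 0.43 did not pass (adjusted p = 0.347, edgeR).

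The leading EBF1 circle, exons 9 and 10 (258 bases), had 112, 154 and 145 CPM in kids and 178, 247 and 49.3 CPM in fetuses. The ranges overlapped (log2 difference -0.13 ± 0.61, adjusted p = 0.925, edgeR). A second form of the same circle starts 3 bases earlier, at 40184670 in place of 40184673, and is 261 bases long. It held 2 of 10, 3 of 9 and 7 of 17 of the joint reads in kids, and 0 of 7, 0 of 9 and 3 of 6 in fetuses. Fetus 3 had the highest share and the other fetuses the lowest, and a two-sided exact permutation test of the shares gave p = 0.4, where 0.1 is the smallest possible. The donor at the end of exon 10 (40210367) was used by 81.5% of EBF1 reads.

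EBF2, on the minus strand of chromosome 8 (72936667 to 73135249), gave 7 circRNAs and few reads, 8 in kids and 26 in fetuses. Its level was 41.7, 0 and 72.2 CPM in kids and 249, 195 and 144 CPM in fetuses. Every kid library lay below every fetus library, the 1 gene of the 9 with this order. The means were 38.0 ± 36.2 CPM in kids and 196 ± 52.7 CPM in fetuses (SD, n = 3 each). The log2 difference of -2.10 ± 0.74 did not pass (adjusted p = 0.0533, edgeR). It passed without TMM factors (-2.34, adjusted p = 0.0302), with exonic circles alone (-2.10, adjusted p = 0.0472) and without kid 3 (-2.75, adjusted p = 0.0448). These were among 4 of 16 alternatives in which it passed; adjusted p was up to 0.171 (without fetus 1) in the others. The leading circle, exons 8 to 10 (376 bases), had 1, 0 and 4 reads in kids and 6, 3 and 5 in fetuses, and no EBF2 circle reached the test.

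BNC2, a zinc finger protein known from fibroblasts and other connective tissue cells, lies on the plus strand of chromosome 8 and gave 2 circRNAs. The level of the gene was 389, 837 and 389.9 CPM in kids and 49.9, 139 and 79.9 CPM in fetuses. Every kid library lay above every fetus library, with kid 2 the highest. The means were 539 ± 259 CPM in kids and 89.6 ± 45.3 CPM in fetuses (SD, n = 3 each), and the log2 difference was 2.54 ± 0.52 (adjusted p = 0.00146, edgeR). It passed without each library in turn (adjusted p of 0.00128 to 0.0182) but not without fetus 1 and fetus 2 together (2.63, adjusted p = 0.0757).

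A circle of BNC2 exon 6 alone, 1970 bases (27805904 to 27807873), carried 98.0% of the gene's reads and is the longest exonic circle among the 62. It had 28, 31 and 26 reads in kids and 1, 5 and 5 in fetuses, without overlap. Its log2 difference was 2.62 ± 0.55 (adjusted p = 0.00745, edgeR). The fibroblast and matrix list, which marks the cells BNC2 is known from, had 8 members with a circRNA and 4 tested. FBN2 fell in kids (-1.06 ± 0.27, adjusted p = 0.00981) and FBN1 did not pass (-0.38 ± 0.50, adjusted p = 0.646, edgeR). COL12A1, with 8 reads in kids and 67 in fetuses, and POSTN, with 0 in kids and 35 in fetuses, reached the read minimum through the fetus libraries alone, and their values are given as a description. Members with reads too few for the test, named after their values were seen, did not share a direction. COL1A1 had 14 reads in kids and 5 in fetuses, with uneven kid libraries (113 ± 159 CPM, SD). COL1A2 (2 and 6), COL3A1 (4 and 11) and PDGFRA (2 and 3) had more reads in fetuses.

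**Figure D5:**
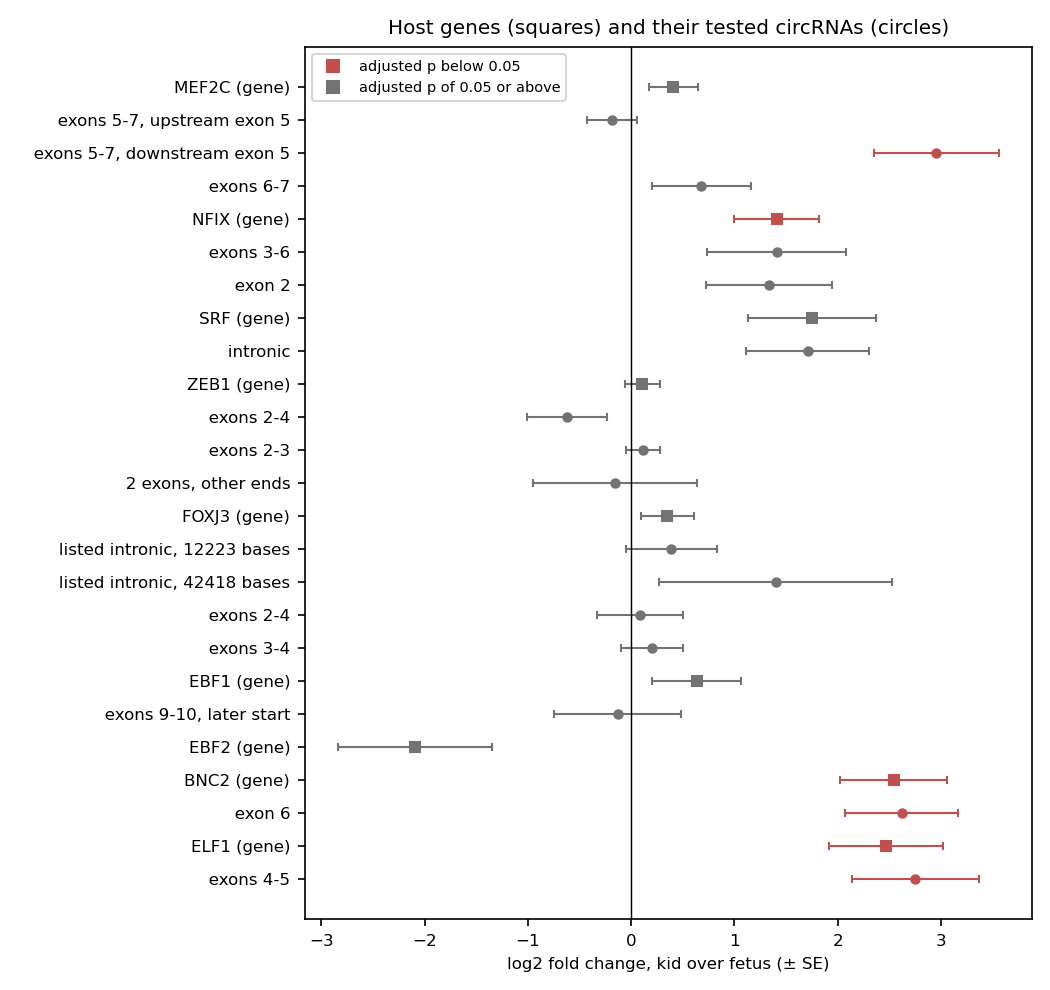
log2 difference of kid over fetus with its standard error for the 9 genes and for their tested circRNAs (edgeR, 3 libraries a stage; squares are genes, circles are circRNAs, red marks an adjusted p below 0.05). BNC2, ELF1 and NFIX and the circles MEF2C downstream exon 5, BNC2 exon 6 and ELF1 exons 4 to 5 passed, all to the right of 0.

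The authors' deposited table marks 6 of the 69 entries as significant (8.70%, against 3.26% of all entries), on a log2 scale of fetus over kid, in which a negative value means higher in kids. They include MEF2C downstream exon 5 (-3.3448, q = 0.00746074), BNC2 exon 6 (-2.5852, q = 0.00601936) and ELF1 exons 4 to 5 (-3.9096, q = 0.00488901). The others are an SRF entry (-1.7653, q = 0.377575) and both entries of FOXJ3 exons 2 to 4. The FOXJ3 entries belong to 1 circle, which was not called with its entries added (adjusted p = 0.926, edgeR). The share of 8.70% thus counts this circle as 2 entries.

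Relatives and partners of the 9 genes mostly did not pass. Of 20 MEF2 and SRF family members and cofactors 12 had a circRNA and 8 were tested, with no call and a median log2 difference of -0.24. Those with the most reads were KAT2B, an acetyltransferase (0.33 ± 0.19, adjusted p = 0.246), MEF2D (-0.37 ± 0.45, adjusted p = 0.627) and HDAC4, a deacetylase that binds MEF2 proteins (0.23 ± 0.40, adjusted p = 0.750, edgeR). Of 30 ETS and forkhead factors 5 were tested, 1 of which reached the read minimum through kids alone, and none passed. ELF2 had a log2 difference of 0.32 ± 0.30 (adjusted p = 0.489) and FOXN3 of -0.40 (adjusted p = 0.549, edgeR).

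Of 50 myogenic regulators 28 had a circRNA and 11 were tested, 1 of which reached the read minimum through fetuses alone. MYPN, which encodes the sarcomere protein myopalladin, rose (1.11 ± 0.26, adjusted p = 0.00509) and NFIB, a relative of NFIX, fell in kids (-0.97 ± 0.30, adjusted p = 0.0280, edgeR). MYOD1, MYF5, MYF6 and MYOG had no circRNA listed. Of 44 mesenchymal and adipogenic factors 17 had a circRNA and 5 were tested, with a median of -0.87, of which EBF3, a relative of EBF1 and EBF2 (-0.87 ± 0.29, adjusted p = 0.0379), and GLI3, a hedgehog effector (-1.87 ± 0.65, adjusted p = 0.0468, edgeR), fell. NFIB lost its call without kid 2, kid 3, fetus 1 or fetus 3 (adjusted p up to 0.118 over single libraries left out), EBF3 without any library but kid 3 (up to 0.107) and GLI3 without any but fetus 3 (up to 0.187). Over all alternatives, single libraries included, NFIB passed in 9 of 18, EBF3 in 7 of 18 and GLI3 in 5 of 17. None of them passed with DESeq2 or when scaled to valid reads, and GLI3 also did not pass with exonic circles alone.

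The muscle fibre list had 5 of 9 tested members that rose and none that fell, led by NEB (2.62 ± 0.23, adjusted p = 6.03e-08) and ATP2A1, the calcium pump of fast fibres (1.77 ± 0.26, adjusted p = 8.4e-05, edgeR), with CKM at 42 reads in kids and 0 in fetuses. CKM reached the read minimum through the kids alone. ACTN2, also among the 5 and named after its values were seen, lost its call without kid 2, fetus 1, fetus 2 or fetus 3 (adjusted p up to 0.0684, edgeR) and in 8 of 18 alternatives in all. Of the endothelial list PECAM1 alone was tested and did not pass (-0.20 ± 0.94, adjusted p = 0.917, edgeR). DOCK8, the 1 immune gene tested, fell (-1.45 ± 0.50, adjusted p = 0.0475, edgeR), a call lost without any library but fetus 2 (adjusted p up to 0.162). Over all alternatives, single libraries included, DOCK8 passed in 7 of 18. Of the fat list, PPARG and LPL had 1 read in kids and 0 in fetuses each, and ADIPOQ and PLIN1 were at 0. Its 1 tested gene, ACACB, encodes the acetyl-CoA carboxylase of heart and skeletal muscle and does not mark fat in whole muscle; it rose (3.43 ± 0.27, adjusted p = 1.83e-08, edgeR).

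Among 1131 host genes with at least 50 reads, the pattern over the 6 libraries most like that of BNC2 was that of ATP2A1 (Pearson r of log2 CPM 0.992), followed by CTAGE5 (0.986). For NFIX these were POT1 (0.994) and SORL1 (0.974), for ELF1 PDE7A (0.971) and RPS6KA3 (0.962), and for SRF IARS2 (0.982) and KANSL1L (0.982). For MEF2C they were ANKRD13C (0.950) and RAD23B (0.949), for ZEB1 SH3RF1 (0.973) and MAPK8 (0.946), for FOXJ3 RTN4 (0.955) and SPRTN (0.941), and for EBF1 UBR1 (0.973) and ZFAND1 (0.964). These correlations share the libraries and their depths and are given as a description only.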

How the data were processed

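Per the labels' protocols, ribosomal RNA was removed, linear RNA was digested with RNase R and 6 strand-marked libraries were made. Tools named by the submitters' processing notes are TopHat, cutadapt and FastQC. Genome build, annotation and circRNA caller: not given in the sources used here. Back-splice counts for each circRNA in each library were deposited, with a normalized signal (SRPBM, not used), a comparison with log2 fold changes of fetus over kid, p-values and q-values, and a quality table with the percent of reads kept, per the file headers. Valid reads ranged from 34123876 to 52035202 per library.

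Gene numbers (4563 entries) were matched to symbols in the RefSeq gene table (all 4563 matched), which also gave chromosome names. Entries with starts 1 base apart were added over the whole table, so listed starts can be off by 1 base. 5 entries under numbers of ZEB1, FOXJ3 and EBF1 lay outside the span rule and were left out. Tests on counts used edgeR 4.0.16 under R 4.3.3 (robust glmQLFit, glmQLFTest, diffSpliceDGE), with TMM factors, all back-splice reads as library sizes and at least 5 reads in at least 3 libraries. SE is the absolute log2 value over the square root of F. PCR copies are not independent molecules. Alternatives included DESeq2 1.42.0, other scalings and filters, single libraries left out and a replicate block. Shares were compared by exact permutation in scipy 1.17.1. The method was run on simulated counts, with changes of a fixed size in features that had passed the read filter. The spread set for circRNAs there was larger than the common value of these data, so no error rate for the 9 genes follows. Named are all 9 genes, each circRNA tested, the leading circle of each gene, passing members of each list (up to 3 a direction) or the 2 with the most reads, and the 2 most alike host genes. The members and lists were chosen with earlier results of these data known.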

Additional observations from a re-analysis of the deposited data

How the results depend on the processing

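Over the named results, 362 values under an alternative kept their direction and their side of the threshold, 9 came to pass, 17 no longer passed and 21 changed direction. Those 21 were log2 differences that passed neither before nor after. Without TMM factors the sign turned for ZEB1 (-0.16), its exons 2 to 3 (-0.12), FOXJ3 exons 2 to 4 (-0.14) and FOXJ3 exons 3 to 4 (-0.034), and with a minimum of 10 reads for FOXJ3 exons 2 to 4 (-0.027) and ZEB1 exons 2 to 3 (-0.00165). Without fetus 1 and fetus 2 together it turned for ZEB1 (-0.066), its exons 2 to 3 (-0.14), FOXJ3 exons 2 to 4 (-0.51), MEF2C exons 6 to 7 (-0.015) and EBF1 exons 9 to 10 (1.33). Without single libraries the ranges spanned 0 for ZEB1 (-0.034 to 0.20), its exons 2 to 3 (-0.019 to 0.20), its circle with other ends (-0.54 to 0.35), FOXJ3 exons 2 to 4 (-0.26 to 0.46) and EBF1 exons 9 to 10 (-0.67 to 0.28). Called host genes numbered 340 (209 higher in kids, 131 lower), 200 when scaled to valid reads, and 184 to 249 without single libraries; called circRNAs numbered 297, and 150 to 214 without single libraries. Unequal change was called for 30 host genes, 14 with the replicate block, and 6 to 24 without single libraries. Without fetus 1 and fetus 2 together, which leaves 1 fetus library assumed to vary like the kids, 71 host genes, 18 circRNAs and 0 of the 9 genes were called; without single libraries 2 to 4 of the 9 were. EBF2 could not enter that fit, nor could the ELF1 circle enter fits without a kid library. Without TMM factors the median of all host genes moved to -0.21 and the calls turned to 135 higher and 206 lower for host genes and to 146 higher and 181 lower for circRNAs. NFIX did not pass without TMM factors (1.15, adjusted p = 0.0595), when scaled to valid reads (0.0663), with DESeq2 (0.0574) or under the host names as deposited (0.0554, edgeR). The deposited names gave 240 calls.

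For each library the deviation of log2 CPM from its stage mean was taken over the tested host genes. These deviations correlated at 0.014, 0.031 and -0.043 between same-numbered kid and fetus libraries, so the numbers were not taken as pairs. With the replicate block 313 host genes and 229 circRNAs were called, and MEF2C unequal change gave an adjusted p of 0.0288. With exonic and intronic reads alone as library size, chosen after seeing the data, EBF2 passed (adjusted p = 0.0478, edgeR). EBF2 held 34 reads in all and SRF 63, and the size of difference that such depths could show was not measured.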

Other observations

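Genes of the lists that were too rare for the test included PAX7, the factor of muscle satellite cells, and PRRX1, a factor of limb mesenchyme, both chosen after their values were seen. PAX7 had 1, 0 and 0 reads in kids and 9, 4 and 3 in fetuses. Each fetus library lay above each kid library, and the ratio of kid over fetus of the pooled reads, scaled by library size, was 0.0486 with an exact 95% interval of 0.00116 to 0.313 that covers counting error only. Without single libraries the ratio lay between 0.0328 and 0.0795, except without kid 1, which held the 1 kid read. PRRX1 had 0 reads in each kid and 2, 5 and 0 in fetuses. As 5 of the 7 fetus reads came from fetus 2 and fetus 3 had none, no fold is given.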
